A study of Homo sapiens with 4 samples.

Results

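The stretches of the genome recovered with HuR over control immunoglobulin (IgG) were examined in unirradiated WS1 cells, a line of normal human skin fibroblasts. The members are all 47930 peaks of the authors' 0 Gy list, out of 84146 peaks in the 2 deposited lists. The study exposed WS1 cells to 0 or 5 Gy of X-rays and sequenced RNA pulled down with HuR or with IgG, in 4 libraries with 1 library per group. Its stated aim was to compare RNAs bound by HuR between the doses. The 0 Gy list sets the HuR library of unirradiated cells against the IgG library of unirradiated cells. The 5 Gy list (36216 peaks) sets the same pair of libraries from irradiated cells against each other and serves as a reference. The labels give no time after irradiation, no passage and no repeat culture. With 1 library per group no test between conditions was possible, read depth is unknown from peak lists, and every difference between the lists lacks a replicate check. Intervals below are exact 95% binomial intervals of counting error, in which each peak counts as an independent draw. The fibroblast identity of the line was not checked against marker genes, because the lists hold no gene names.

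HuR, the product of ELAVL1, is an RNA-binding protein of the ELAV family that binds U-rich and AU-rich stretches of RNA through RNA recognition motifs. It is mostly nuclear at rest, shuttles to the cytoplasm, and is known for stabilising short-lived mRNAs through their 3′ untranslated regions. It also binds introns of unspliced transcripts. RNA immunoprecipitation recovers RNA together with the protein, so a peak is a stretch of genome where reads were enriched and not a mapped contact site.

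Positions are on hg19, counted from 1. Each locus is identified by its position, and the gene name beside it is background from general knowledge of the hg19 map, since the peaks were not joined to an annotation. No value rests on a name, except where the span of a chain of peaks is set against the length of a gene. All 38 gene symbols used for the ranked loci lie on the same chromosome in the RefSeq gene table of GRCh38.p14. Loci whose gene was not certain are given by position alone.

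Peaks of the 0 Gy list were mostly short, and the few long ones carried much of the covered length. The list covered 37.9 Mb. Its median peak was 448 bp long, with a middle range from 332 bp (lower quartile) to 782 bp (upper quartile), and lengths ran from 128 to 17257 bp. Peaks under 500 bp made up 56.3% of the list. The longest 10% of peaks, 4793 in number, held 40.1% of the covered length. Peaks of at least 4 kb numbered 1019, or 2.13% of the list, and held 14.7% of the covered length. The larger number of peaks at 0 Gy than at 5 Gy lay among the short ones. Under 500 bp there were 26975 peaks at 0 Gy and 15509 at 5 Gy, whereas at 1 kb or longer there were 8973 and 9068. In the classes of at least 2 kb the 0 Gy list held fewer peaks than the 5 Gy list, with 2806 against 2942 from 2 kb to under 4 kb and 1003 against 1057 from 4 kb to under 10 kb. The most frequent length also differed, from 325 to under 350 bp at 0 Gy and from 375 to under 400 bp at 5 Gy in classes of 25 bp. This split rests on 1 pair of libraries per dose, and a difference in read depth or in the fragment size that the caller assumed cannot be told apart from one between doses.

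**Figure D1:**
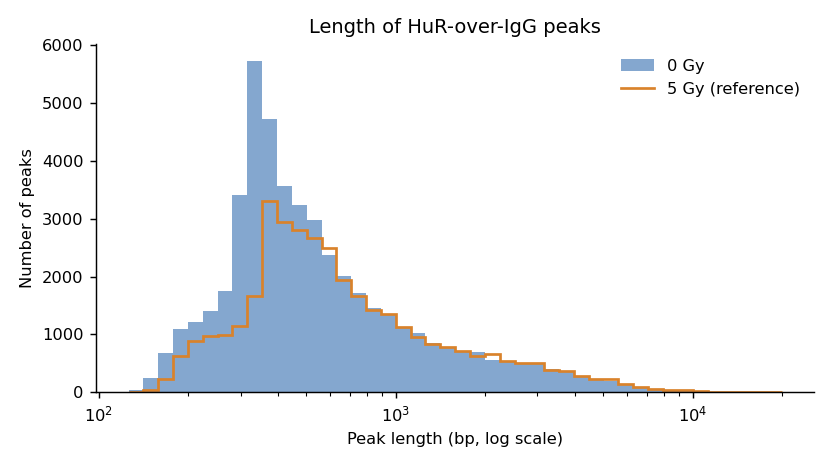
Number of peaks (y axis) by peak length in bp (x axis, log scale) in the 0 Gy list (filled) and in the 5 Gy list (line). The filled area stands above the line below about 500 bp, where the lists hold 26975 and 15509 peaks, and the outlines nearly coincide at 1 kb and above, where they hold 8973 and 9068.

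From 250 bp upwards to 10 kb, classes of longer peaks scored higher or as high and more often had a counterpart at 5 Gy, whereas the shortest peaks stood apart. The score is the authors' peak score, which starts at 60 in this list and is tied at 3100 for most of its strongest peaks. Across all 47930 peaks, length and score had a Spearman's rho of 0.54, as a description of peaks that share 1 pair of libraries. The median score was 143.3 under 250 bp, 86.1 from 250 bp to under 500 bp, 443.0 from 1 kb to under 2 kb and 1478.5 from 2 kb to under 4 kb. A score of 3100 or more was given to 50.9% of peaks of at least 4 kb and to 5.35% of all peaks. Of all 0 Gy peaks, 58.1% overlapped a 5 Gy peak by at least 1 bp. The share was 47.8% (interval 46.3 to 49.2, 4551 peaks) under 250 bp, 40.9% (interval 40.3 to 41.6, 22424 peaks) from 250 bp to under 500 bp, and 96.3% (interval 94.95 to 97.39, 1003 peaks) from 4 kb to under 10 kb. A longer peak also has more bases with which to meet a 5 Gy peak.

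The 10 longest peaks were between 11305 and 17257 bp long, and the 9 that could be placed at a gene are taken here by what its product does. The longest, tied at a score of 3100, ran for 17257 bp on chromosome 19 (57801817 to 57819073), and a 5 Gy peak covered 99.1% of it. The next, of 16943 bp on chromosome 3 (170138950 to 170155892), lay at CLDN11, which encodes a tight-junction claudin. Its 5 Gy counterpart came as 2 peaks that covered 90.4% of it. At HNRNPC, whose product is a nuclear protein that binds U-rich RNA, a peak of 14385 bp (chromosome 14, 21723274 to 21737658) scored 3100 at 0 Gy, and the overlapping 5 Gy peak scored 1410.7.

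Genes of signalling and chromatin proteins carried the next of them. A peak of 12843 bp lay in TRIO (chromosome 5, 14157669 to 14170511), which encodes a guanine nucleotide exchange factor, and 4 peaks at 5 Gy overlapped it. HELLS, which encodes a chromatin remodeller of the SNF2 family, carried a peak of 12764 bp (chromosome 10, 96361055 to 96373818), of which 1 peak at 5 Gy covered 98.8%. CBX5, which encodes the heterochromatin protein HP1 alpha, carried a peak of 11572 bp (chromosome 12, 54624733 to 54636304), with 96.5% covered at 5 Gy. These 3 peaks were tied at a score of 3100.

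Among genes of membrane and trafficking proteins, SLC5A3, the sodium and myo-inositol cotransporter gene, carried a peak of 12179 bp (chromosome 21, 35466504 to 35478682) with a score of 675.1, against 1124.4 for its 5 Gy counterpart. At SNX5, which encodes a sorting nexin of endosomes, the 0 Gy peak of 11754 bp (chromosome 20, 17937744 to 17949497) lay wholly inside a 5 Gy peak of 14969 bp that scored 862.2, whereas the 0 Gy peak scored 3100. ANXA2, which encodes a calcium-dependent phospholipid-binding protein, carried a peak of 11355 bp (chromosome 15, 60678836 to 60690190), and the 5 Gy peak over it was 15614 bp long. In these 3 genes both lists thus held 1 long peak at the same place. Scores of the lists, here and at HNRNPC, come from separate pairs of libraries of unknown depth. Their differences were not tested.

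The peak at RBM14 differed from the other nine. RBM14 encodes an RNA-binding protein of paraspeckles. Its peak of 11305 bp (chromosome 11, 66384082 to 66395386) scored 145.6, above 52.3% of the list, and no 5 Gy peak overlapped it. The nearest 5 Gy peaks were 15.5 kb away on its lower side and 2.15 kb away on its upper side. Of the 16 peaks of at least 10 kb, the other 15 overlapped a 5 Gy peak. The 100 kb bin around it held 10 peaks at 0 Gy (19.8 kb covered) and 5 at 5 Gy (6.802 kb). Among the 1019 peaks of at least 4 kb, 30 scored under 250.

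To find where peaks crowd together, the genome was divided into bins of 100 kb. A peak was counted in the bin of its midpoint, and covered bases were divided exactly at bin edges. At 0 Gy, 9256 bins held at least 1 peak, and 7999 of them also held a 5 Gy peak. The median bin with a peak held 3 peaks over 2.52 kb. At the 99th percentile a bin held 26 peaks and 22.6 kb. The 93 bins with most peaks, 1% of the bins with a peak, held 2887 peaks, or 6.02% of the list. Of the covered length, 50% lay in 1517 bins, which is 16.3% of the bins with any covered base. Peak number and covered length per bin had a Spearman's rho of 0.85 over the 9256 bins, yet their extremes differed. Only 1 bin was among the 10 highest by both measures, and 22 were among the 50 highest by both.

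**Figure D2:**
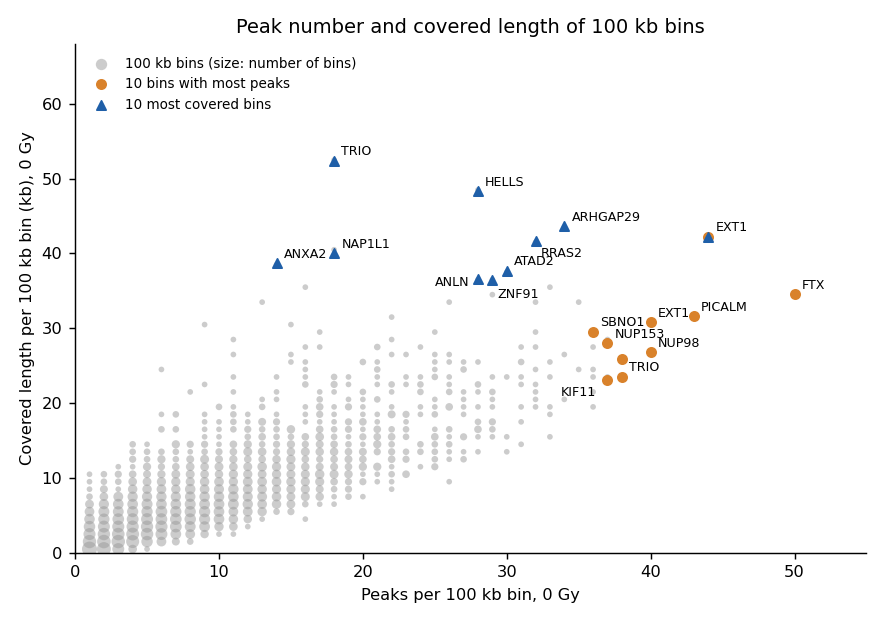
Each grey point stands for 100 kb bins with the same number of 0 Gy peaks (x axis) and the same covered length to 1 kb (y axis, in kb), and its size for the number of such bins. Orange circles are the 10 bins with most peaks and blue triangles the 10 most covered. TRIO, at 52.4 kb with 18 peaks, and FTX, at 50 peaks with 34.6 kb, lie at different ends, and 1 bin at EXT1 is in both sets.

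The most covered bin of the list lay in TRIO on chromosome 5 (14100001 to 14200000). Its 18 peaks measured 52.4 kb in sum, so that 52.4% of the bin was covered, against 41.5 kb from 17 peaks at 5 Gy. Of its peaks, 5 were at least 4 kb long and together measured 40.7 kb. Peaks less than 1 kb apart formed a stretch of 54.9 kb there, from 14143346 to 14198283. Peaks filled 94.8% of that stretch, the longest of its kind in the list. At 5 Gy the same interval was divided into 2 such stretches, of which the longer measured 31.8 kb.

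The products of HELLS, NAP1L1 and ATAD2 all act on chromatin, and each gene lay in 1 of the 10 most covered bins. The HELLS bin (chromosome 10, 96300001 to 96400000) ranked second with 28 peaks over 48.4 kb, and the 5 Gy list had 28 peaks over 43.5 kb there. NAP1L1 encodes a histone chaperone. Its bin (chromosome 12, 76400001 to 76500000) held 18 peaks over 40.0 kb with a median score of 974.6, the highest of the 10, and the 5 Gy list had 12 peaks with a sum of 45.5 kb. The bin at ATAD2, which encodes a bromodomain ATPase (chromosome 8, 124300001 to 124400000), held 30 peaks in each list, with a sum of 37.7 kb at 0 Gy and 43.0 kb after irradiation. The unirradiated list thus had the lower coverage at NAP1L1 and ATAD2 and the higher at HELLS.

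Genes acting on small GTPases and in cell division lay in 3 more of them. ARHGAP29 encodes a GTPase-activating protein. Its bin (chromosome 1, 94600001 to 94700000) held 34 peaks over 43.7 kb at 0 Gy and 33 over 46.9 kb at 5 Gy, where it ranked first. RRAS2 encodes a Ras-related GTPase. In its bin (chromosome 11, 14300001 to 14400000) 32 peaks covered 41.7 kb at 0 Gy and 23 peaks covered 30.8 kb at 5 Gy. ANLN encodes anillin, which organises the contractile ring in cytokinesis. Its bin (chromosome 7, 36400001 to 36500000) held 28 peaks in each list, over 36.6 kb at 0 Gy and 38.3 kb at 5 Gy.

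The other bins of the 10 were of mixed function. The ANXA2 bin (chromosome 15, 60600001 to 60700000) reached 38.7 kb with 14 peaks, whose median length of 1616.5 bp was the longest among the 10. The EXT1 bin (chromosome 8, 119000001 to 119100000) reached 42.2 kb with 44 peaks of a median length of 564 bp. EXT1 encodes a glycosyltransferase that builds heparan sulphate. The bin at ZNF91, a zinc-finger gene (chromosome 19, 23500001 to 23600000), held 29 peaks over 36.5 kb. Of the 10 most covered bins, 7 were also among the 10 most covered at 5 Gy, as were 39 of 50 and 72 of 100. By number of peaks the lists shared fewer of their highest bins, with 4 of 10, 27 of 50 and 60 of 100.

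**Figure D3:**
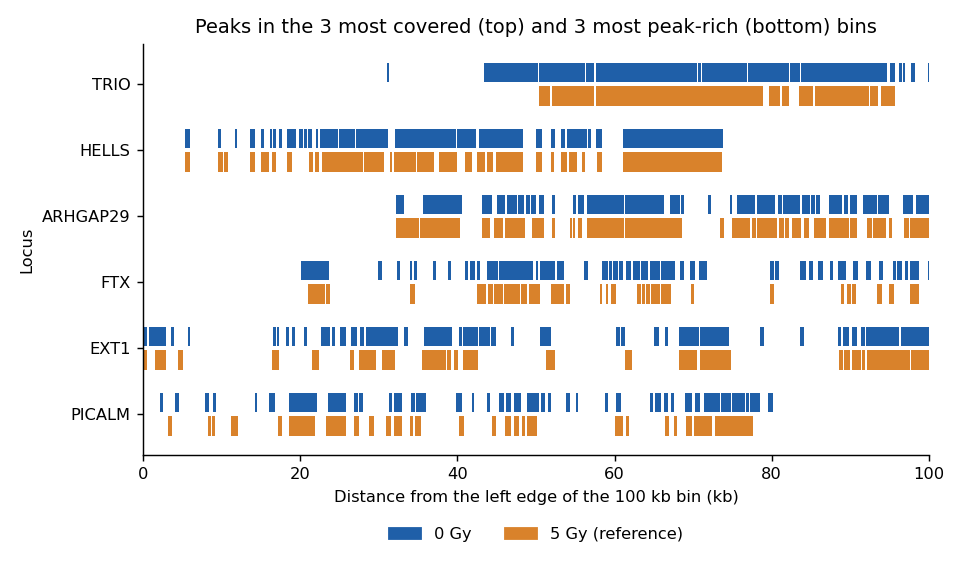
Peaks of the 0 Gy list (blue) and the 5 Gy list (orange) as blocks along 6 bins of 100 kb, by distance in kb from the left edge of the bin. In TRIO, 0 Gy peaks form a nearly closed block that fills 52.4% of the bin, whereas FTX, EXT1 and PICALM show many separate blocks, 50, 44 and 43 by midpoint.

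By number of peaks, the order was led by other loci. FTX, a long noncoding RNA gene on chromosome X, came first with 50 peaks over 34.6 kb (73400001 to 73500000), against 30 peaks over 22.6 kb at 5 Gy. None of its 50 peaks reached a score of 3100, and their median score was 135.2. EXT1 held both the second bin, described above, and the fourth (chromosome 8, 118900001 to 119000000) with 40 peaks over 30.8 kb. PICALM, which encodes an adaptor of clathrin-coated vesicles, came next after the first EXT1 bin with 43 peaks over 31.6 kb (chromosome 11, 85700001 to 85800000).

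Of the rest, 3 bins lay at genes of the nuclear pore and the spindle. NUP98 (chromosome 11, 3700001 to 3800000) had 40 peaks over 26.8 kb and NUP153 (chromosome 6, 17600001 to 17700000) had 37 peaks over 28.02 kb. Both encode nucleoporins. KIF11 encodes a kinesin of the mitotic spindle, and its bin (chromosome 10, 94300001 to 94400000) had 37 peaks over 23.1 kb. The second bin of TRIO (chromosome 5, 14200001 to 14300000) had 38 peaks over 23.5 kb, with a median length of 455.5 bp against 995.5 bp in the first. SBNO1 (chromosome 12, 123800001 to 123900000) closed the 10 with 36 peaks over 29.5 kb, and was the only 1 of the 10 with a peak scoring 3100 or more.

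The bin that ranked sixth by peak number, on chromosome 16 (21400001 to 21500000), held 38 peaks at 0 Gy and 36 at 5 Gy, where it ranked first. This part of the short arm is known for duplicated segments that are nearly identical. How reads that fit several copies were placed is not given in the sources used here, so peaks there are uncertain in their position.

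The count of peaks in a bin depended on how finely peaks were divided. With peaks less than 1 kb apart joined, the highest count in a bin was 20 instead of 50, and 2 of the 10 bins with most peaks stayed among the 10, against 9 of the 10 most covered.

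All 10 of the bins with most peaks had fewer peaks at 5 Gy, as did 6 of the 10 most covered. Choosing bins by their 0 Gy value favours a lower value in any other list, and the 5 Gy list as a whole had 75.6% of the peaks and 91.7% of the covered length. The 10 bins with most peaks had 281 peaks at 5 Gy, 69.7% of the 403 at 0 Gy, and 81.4% of the covered length. The 10 most covered bins had 87.6% of the peaks and 93.8% of the covered length. Of the peaks in the most covered bins, 211 of 275 overlapped a 5 Gy peak (76.7%, interval 71.3 to 81.6), against 58.1% of the whole list. These peaks were also longer, with a median of 733 bp against 448 bp. The 5 Gy list covered 392.0 kb of these 10 bins, so an overlap of 1 bp is easier to meet there. Among peaks under 500 bp the shares were 51.2% (interval 40.04 to 62.3, 84 peaks) in these bins and 42.1% in the list. At 500 bp or longer they were 88.0% (interval 82.5 to 92.2, 191 peaks) and 78.8%. A stricter rule, with 50% of each peak required to overlap, was met by 41.9% of the whole list. In the most covered bins 46.5% met it (interval 40.5 to 52.6). Within length classes these bins did not exceed the list under this rule. Under 500 bp the shares were 21.4% (interval 13.2 to 31.7) in these bins and 28.3% in the list. At 500 bp or longer they were 57.6% (interval 50.2 to 64.7) and 59.2%. Of the peaks in the bins with most peaks, 226 of 403 overlapped a 5 Gy peak by at least 1 bp (56.1%, interval 51.1 to 61.0), against 58.1% of the list. Under the stricter rule 34.0% did (interval 29.4 to 38.8), against 41.9% of the list. Peaks of the same bin are neighbours from the same pair of libraries, and the bins were chosen by their 0 Gy values. These intervals therefore do not test a difference from the list.

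**Figure D4:**
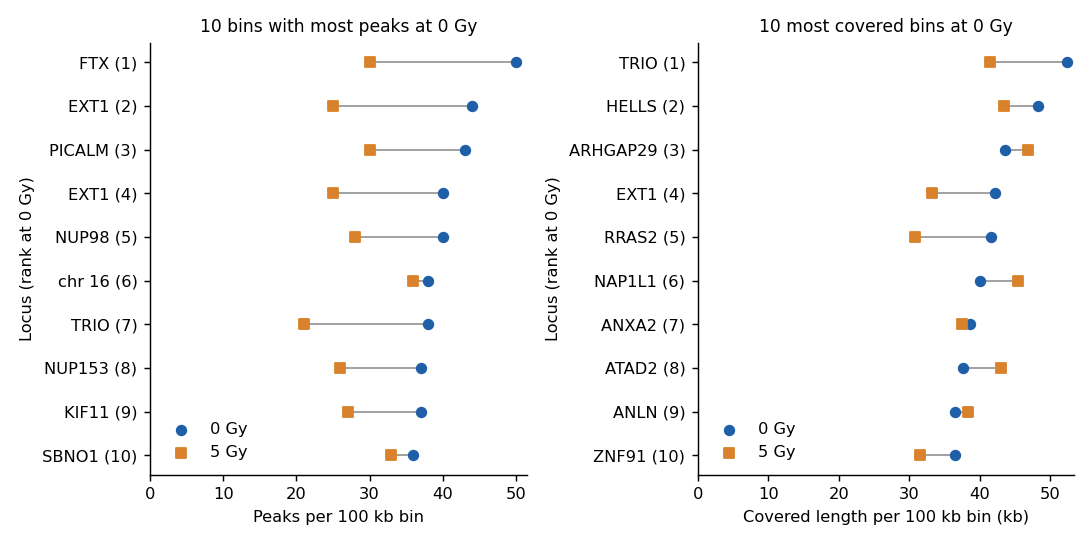
The left panel gives peaks per 100 kb bin in the 10 bins with most peaks at 0 Gy, and the right panel covered length in kb in the 10 most covered, at 0 Gy (circles) and 5 Gy (squares), with the rank at 0 Gy in brackets. The 5 Gy value is lower in all 10 bins on the left, and lower in 6 and higher in 4 on the right, where ARHGAP29, NAP1L1, ATAD2 and ANLN are the 4.

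Highly ranked bins could hold few peaks with long ones among them, or many peaks with none of at least 4 kb. Among the 50 most covered bins, 37 held a peak of at least 4 kb, against 14 of the 50 bins with most peaks. In the whole list, 923 bins held such a peak, out of 9256 bins with any peak. The 50 most covered bins were chosen by covered length, to which long peaks add. Of the 50 most covered, the bin with fewest peaks lay on chromosome 19 (57800001 to 57900000), with 9 peaks over 30.99 kb. The HNRNPC bin covered 28.3 kb with 11 peaks. RGMB, which encodes a co-receptor of bone morphogenetic proteins, lies in a bin with 11 peaks over 26.4 kb (chromosome 5, 98100001 to 98200000). UGCG encodes glucosylceramide synthase, and its bin (chromosome 9, 114600001 to 114700000) reached 33.4 kb with 13 peaks and a median score of 1340.7. The ANXA2 bin given above completed these 5. In the same order, with ANXA2 last, the 5 Gy list held 8, 12, 12, 15 and 13 peaks in these bins.

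The 5 least covered of the 50 bins with most peaks held no peak of at least 4 kb, and 4 of them are given here. At FNIP1, which encodes a partner of folliculin, 30 peaks covered only 13.4 kb (chromosome 5, 131000001 to 131100000), and none was longer than 1782 bp. At NAA15, a subunit gene of an N-terminal acetyltransferase, 31 peaks covered 14.9 kb (chromosome 4, 140200001 to 140300000). UBE2R2, a ubiquitin-conjugating enzyme gene, had 30 peaks over 15.1 kb (chromosome 9, 33800001 to 33900000) with a median score of 90.1. The bin at SAE1, a gene of SUMO activation, had 33 peaks over 15.6 kb (chromosome 19, 47600001 to 47700000). No peak in these 4 bins scored 3100 or more. Median peak lengths of these bins ran from 374 bp at FNIP1 to 457 bp at NAA15, against 448 bp in the list. At 5 Gy the 4 bins held 17, 28, 15 and 18 peaks in the same order.

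The strongest peaks were relatively more frequent where peaks were few. In bins with 1 peak, 231 of 2449 peaks (9.43%, interval 8.30 to 10.7) scored 3100 or more. The share was 4.84% (interval 4.49 to 5.21) in bins with 11 to 20 peaks, and 20 of 1489 peaks (1.34%, interval 0.822 to 2.07) in bins with over 30. Peaks of at least 4 kb made up 2.82% and 1.01% of the first and last of these classes. Median scores in the same classes were 138.8 and 128.2, so the contrast lay among the highest scores. Median lengths there were 449 and 494 bp, and 53.5% and 59.1% of the peaks overlapped a 5 Gy peak. The class with over 30 peaks came from only 43 bins. Neighbouring peaks of a bin are not independent draws, so the intervals above do not test a difference between classes.

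**Figure D5:**
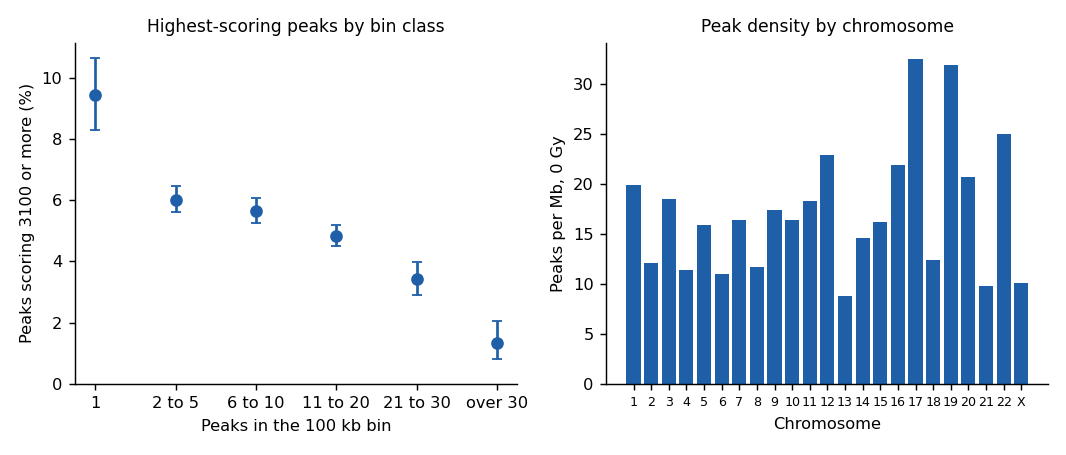
The left panel gives the share of peaks with a score of 3100 or more (y axis, %) by the number of peaks in their 100 kb bin (x axis), with exact 95% intervals, falling from 9.43% to 1.34%. The right panel gives 0 Gy peaks per Mb for the autosomes and chromosome X, from 8.83 on chromosome 13 to 32.6 on chromosome 17.

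Neighbouring peaks were joined into chains when less than 10 kb lay between them, which gave 14862 chains. Chains of at least 20 peaks numbered 174 and held 4674 peaks, 9.75% of the list. At the other end, 6687 peaks (13.95%) stood alone. The median gap between neighbours was 2717 bp, and 34.5% of gaps were under 1 kb. Among the 25 chains with most peaks, peaks filled between 19.6% and 67.9% of the span, with a median of 36.5%.

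Some of the chains with most peaks were about as long as a gene, and others were far shorter than theirs. The chain with most peaks, 54 over 34.1 kb, spanned 102.0 kb of chromosome 2 (20448480 to 20550477). It lay at PUM2, which encodes an RNA-binding protein of the Pumilio family and is 103.6 kb long in RefSeq on GRCh38.p14. At 5 Gy this span held 35 peaks over 27.2 kb. FTX followed with 53 peaks along 92.4 kb, 34.8% of its gene. PICALM came next with 50 peaks along a span of 101.7 kb, 90.3% of the length of its gene. The chains ranked 4 and 5, with 49 and 48 peaks, lay on chromosome 16 (22463712 to 22542841 and 21419026 to 21531823), in the part of the short arm with duplicated segments named above.

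A gene was assigned to 18 of the 25 longest chains by peak number, of which those beyond rank 5 were chosen after their values were seen. In 8 of the 18, the span of the chain was within 5% of the length of the gene. Only lengths were compared, not the positions of chain and gene. The names were themselves checked against these lengths, so this count is no separate evidence for them. ETNK1, an ethanolamine kinase gene, had a chain of 65.5 kb, 99.96% of the gene length, with 36 peaks at 0 Gy and 26 at 5 Gy. KIF11 had a chain of 62.5 kb (100.4%) with 36 peaks at 0 Gy and 29 at 5 Gy. LMNB1, which encodes lamin B1 of the nuclear envelope, had a chain of 59.96 kb (99.3%) with 36 peaks over 21.7 kb, and the 5 Gy list had 19 over 12.015 kb. ZFR, a gene of a zinc-finger RNA-binding protein, had 36 peaks along 90.6 kb (100.2%), and MARCHF6, a ubiquitin ligase gene of the endoplasmic reticulum, had 35 along 86.2 kb (99.5%). The chain at BAZ1B, a bromodomain gene, spanned 101.1% of it.

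Other chains were shorter or longer than their gene. At TRIO, 38 peaks spanned 97.3 kb, 26.5% of the gene length. EXT1 held a pair of chains, of 47 and 44 peaks, which spanned 29.4% and 32.2% of the gene, and the chain of 41 peaks at ARHGAP29 spanned 55.7%. At XPO1, which encodes the nuclear export receptor exportin, the chain of 36 peaks reached 130.1% of the gene length, and its median score of 332.9 compared with 136.6 for the whole list. At ASXL1, a gene of a Polycomb-associated protein, 46 peaks covered 33.4 kb at 0 Gy and 21 covered 15.03 kb at 5 Gy. At SUZ12, which encodes a core subunit of Polycomb repressive complex PRC2, 39 peaks covered 27.5 kb at 0 Gy and 27 covered 22.5 kb at 5 Gy. Chains were ranked by their 0 Gy peak number, which favours a lower number at 5 Gy, as for the bins. The 5 Gy list as a whole had 75.6% of the peaks.

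Peaks also formed broad belts of bins without a gap. The longest run of neighbouring bins with covered bases extended over 29 bins of chromosome 1 (149100001 to 152000000), with 244 peaks at 0 Gy (208.6 kb covered) and 157 at 5 Gy (162.8 kb). The second, of 21 bins on chromosome 19 (52300001 to 54400000), a region known for clustered zinc-finger genes, had 169 peaks at 0 Gy (168.6 kb covered) and 136 at 5 Gy (169.0 kb). A run of 21 bins on chromosome 16 (2100001 to 4200000) had 130 peaks, 1 of 20 bins on chromosome 20 (32600001 to 34600000) had 153, and 1 of 19 bins on chromosome 12 (121600001 to 123500000) had 177. The last was the densest of these 5 runs by peak number, with 9.32 peaks per bin, and the run on chromosome 19 the most covered, at 8.03% of its length. In all, 72 runs of at least 10 bins held 13.5% of the peaks.

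Peak density was compared over the autosomes and chromosome X, and chromosome Y was left out. Chromosomes 17 and 19, both known to be rich in genes, had the densest peaks. Between their first and last peak there were 32.6 peaks per Mb on chromosome 17 and 32.0 on chromosome 19, followed by 25.1 on chromosome 22. Chromosome 13 had 8.83, chromosome 21 had 9.83 and chromosome X had 10.1. A peak was found in 54.5% of the 100 kb bins of chromosome 19 and in 22.3% of those of chromosome 13. Within bins that held peaks, the autosomes and chromosome X differed less, from 3.74 peaks per bin on chromosome 6 to 6.46 on chromosome 17. Median peak length ran from 418 bp on chromosome 2 to 480 bp on chromosome 19. Peaks per Mb were not set against gene number, because the lists carry no genes.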

How the data were processed

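RNA recovered with HuR or IgG from WS1 cells at 0 and 5 Gy was sequenced in 4 libraries. The submitters' processing notes name cutadapt 1.9.1, Bowtie2 2.2.4 and hg19. The names of the deposited peaks begin with MACS. The list names carry a value of 1e-06, and the caller's version is not given in the sources used here. The deposited score of a peak is the authors' and starts at 60, the value that a p of 1e-06 gives on a negative log10 scale multiplied by 10. It was used to describe and filter peaks within its list, except at HNRNPC, SLC5A3 and SNX5, where the 5 Gy score stands beside it. Lists carry no reads, genes or strand.

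Lengths, bins of 100 kb, runs, chains and overlaps were computed in Python 3.11.15 with numpy 2.4.6, pandas 2.3.3 and scipy 1.17.1, and the counting was tested on simulated peaks. Overlap meant at least 1 bp. The named loci were the 10 longest peaks, the 10 bins with most peaks, the 10 most covered bins and the 5 longest runs. Also named were the 5 chains with most peaks and the 5 bins with fewest peaks among the 50 most covered. The last set was the 5 least covered bins among the 50 with most peaks. Some loci are not reported here. Members and rules were chosen with earlier results of these data known. The alternatives are bins of 50 or 200 kb, bins shifted by 50 kb, counting by start, a score of at least 100, joining of peaks less than 1 kb apart and a 50% overlap. Peak sequences and gene-level marker lists were not analysed here for want of an hg19 reference.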

Additional observations from a re-analysis of the deposited data

How the results depend on the processing

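Of 28 values recomputed for 6 results under 7 settings, 14 kept to the reported value by the rule used (counts within 1.5 times, shares within the 95% interval, lengths equal) and 14 moved. The highest covered length of a bin, 52.4 kb, was 57.8 kb in bins shifted by 50 kb, 45.6 kb in bins of 50 kb, 61.1 kb in bins of 200 kb and 49.2 kb at a score of at least 100. The highest number of peaks, 50, was 33 in bins of 50 kb and 20 after peaks less than 1 kb apart were joined. The longest peak, 17257 bp, became a stretch of 54938 bp after joining. The 1% of bins with most peaks held 6.02% of peaks, against 5.75% in bins of 50 kb, 5.58% at a score of at least 100 and 4.57% after joining. The overlap with 5 Gy in the 10 most covered bins, 76.7%, was 84.0% in bins of 50 kb, 70.8% in bins of 200 kb, 90.1% at a score of at least 100 and 46.5% with 50% of each peak required. The last setting, added for the whole list after seeing the data, took its share from 58.1% to 41.9%. As settings added after seeing the data, membership of the 10 highest bins was recounted. Of the 10 bins with most peaks, 2 stayed in bins shifted by 50 kb, 4 at a score of at least 100, 0 at a score of at least 1000 and 2 after joining. Of the 10 most covered, 4, 8, 4 and 9 stayed. Read depth is unknown and limits every comparison of the lists. No paired analysis was possible because no group holds more than 1 library.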

Other observations

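Bins were also ranked by peaks with a score of at least 1000, a choice made after the values were seen. This ranking brought forward loci outside the 10 bins with most peaks. The highest number, 16 of 28 peaks, was found on chromosome 19 (41700001 to 41800000), a bin that by general knowledge of hg19 holds AXL, a receptor tyrosine kinase gene, and the start of HNRNPUL1, a gene of a nuclear ribonucleoprotein. Its peaks had a median length of 490.5 bp, against 448 bp in the list, and 26 of 28 overlapped a 5 Gy peak. The bin at KPNB1, which encodes importin beta (chromosome 17, 45700001 to 45800000), held 12 such peaks of 17, and 16 of the 17 overlapped a 5 Gy peak. Of the whole 0 Gy list, 58.1% of peaks overlapped a 5 Gy peak. These bins were chosen by score, and whether score accounts for their higher shares was not tested. The 5 Gy list held 28 and 15 peaks in these bins.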
